A study of Mus musculus with 8 samples.

Results

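Matricellular proteins are secreted into the extracellular matrix but serve less as structural parts than as modulators of how cells attach, migrate and receive growth factors. A group of 9 such genes is described here. Its genes were chosen by their family membership together with their measured levels in these samples. They are dermatopontin (Dpt), the SPARC-related modular calcium-binding genes Smoc1 and Smoc2, the SPARC-like gene Sparcl1, periostin (Postn), tenascin C (Tnc), thrombospondin 2 (Thbs2), isthmin 1 (Ism1) and F-spondin (Spon1). For each gene the locus that overlapped its annotated span best was used, with an overlap (shared length over the length covered by either) of at least 0.5. All 9 had a value in every sample, among 20153 genes that did, and 8 of the 9 were among the 10281 genes that could be tested, Spon1 being the exception. Since the measured levels were known when the genes were chosen, their values and their passing of any limit are given as a description and carry no p-value.

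RNA-Seq was performed on the fibroblast line NIH3T3, which was derived from mouse embryos and reacts to Hedgehog (Hh) ligand. Cells were stably transfected either with the empty vector pcDNA3.1 or with the same vector carrying Esrrb, a nuclear receptor of the estrogen related receptor family, and were kept under Zeocin selection. Each was then given vehicle or Hh ligand conditioned medium (Hh-CM), diluted 1 in 100, for 48 h. The 4 groups of 2 samples are named Control (empty vector, vehicle), Hh-CM (empty vector, Hh-CM), Esrrb (Esrrb vector, vehicle) and Esrrb+Hh-CM (Esrrb vector, Hh-CM, also written as with both). Cells of independent transfections were pooled for each vector, so that a group stands for a mixed selected population, and the labels do not say whether the samples of a group came from separate transfections. The study describes the 2 samples of each condition as biological replicates. Whether these were separate transfections or separate cultures of the pooled cells is not stated. The spread between the 2 samples of a group may therefore not include differences between transfections. The Hh-CM came from HEK293 cells that secrete the Sonic hedgehog amino terminus, and the vehicle was equally diluted medium of HEK293 cells lacking that transgene.

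Levels are in FPKM, which scales the fragments of a gene by its transcript length and by the mapped fragments of the sample, so that they can be compared between genes. Depth relative to Control replicate 1 ranged from 0.743 to 1.54. The Hh target Gli1 was at 0.0217 to 0.0308 FPKM in Control and 26.8 to 28.1 FPKM in Hh-CM, and Ptch1 at 2.44 to 2.98 against 36.9 to 37.0 FPKM. In Esrrb and Esrrb+Hh-CM, Gli1 was at 0.0371 to 0.106 and at 34.5 to 34.8 FPKM. Esrrb itself was listed at 0 in all 4 libraries labelled Esrrb or Esrrb+Hh-CM, at 0 in both Control libraries and at 0.0281 and 0.0203 FPKM in the Hh-CM libraries, so the RNA values do not show the transfected gene. The study examined Esrrb protein in these cells by Western blot, which is not analysed here. The libraries are called Esrrb here by their labels, and every difference drawn from them is a difference between libraries so labelled. Of 8 fibroblast markers 7 had a value and all 7 reached 1 FPKM, while all 5 epithelial markers stayed under 0.1 FPKM.

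Among these proteins, dermatopontin is a small tyrosine-rich protein that binds decorin and promotes collagen fibril assembly. SMOC1, SMOC2 and SPARCL1 belong to the SPARC family of calcium-binding proteins, which weaken or tune cell adhesion and growth factor signaling. Thrombospondin 2 restrains blood vessel growth and shapes collagen fibrils, and isthmin 1 and F-spondin carry the thrombospondin type repeat. Periostin and tenascin C bind integrins and are made in growing and injured connective tissue, mostly by fibroblasts. A bulk RNA level is the mean over a culture, so fewer expressing cells and less RNA per cell cannot be told apart.

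RefSeq start windows (250 bases before to 50 after the first transcribed base, build GRCm38.p6) were held for 4 of the 9 genes, Dpt, Postn, Thbs2 and Tnc, with a pair of starts each for Postn and Tnc. Those of Dpt, the gene with the largest changes, and of Thbs2 and Postn, the most abundant ones, are printed in lower case with the letters TATAAA, or their reverse complement, in capitals. They lie at chr1:164796413-164796712 on the plus strand for Dpt, chr3:54360857-54361156 on the plus strand for the downstream start of Postn and chr17:14694213-14694512 on the minus strand for Thbs2.
Dpt: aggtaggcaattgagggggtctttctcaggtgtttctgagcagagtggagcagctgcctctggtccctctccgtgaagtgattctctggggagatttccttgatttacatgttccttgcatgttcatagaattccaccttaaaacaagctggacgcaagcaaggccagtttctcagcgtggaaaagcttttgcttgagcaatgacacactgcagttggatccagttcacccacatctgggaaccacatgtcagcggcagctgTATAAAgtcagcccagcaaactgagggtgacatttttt
Postn: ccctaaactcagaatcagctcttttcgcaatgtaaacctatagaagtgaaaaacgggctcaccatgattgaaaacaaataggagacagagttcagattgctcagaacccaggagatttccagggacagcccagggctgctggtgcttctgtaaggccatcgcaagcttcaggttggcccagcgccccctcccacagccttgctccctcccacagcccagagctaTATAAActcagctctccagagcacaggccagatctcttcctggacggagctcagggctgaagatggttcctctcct
Thbs2: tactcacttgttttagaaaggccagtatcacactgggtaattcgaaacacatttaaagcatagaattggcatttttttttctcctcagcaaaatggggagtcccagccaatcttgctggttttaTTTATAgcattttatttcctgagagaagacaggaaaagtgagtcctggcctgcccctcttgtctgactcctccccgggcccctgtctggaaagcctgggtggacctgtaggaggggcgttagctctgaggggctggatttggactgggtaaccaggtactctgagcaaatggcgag
These letters began 12 bases after the annotated first base in Dpt, 26 bases before it in Postn and, on the opposite strand, 126 bases before it in Thbs2. TATAAA, searched on both strands, was found in 5 of the 6 windows of these genes and in 13.6% of all 32851 windows. The pair of Tnc windows overlaps and holds the same TATAAA, counted in each, so the windows are not independent and nothing is read from this share. The estrogen related receptor element TCAAGGTCA, its core AAGGTCA, which lies within it, and the Gli element GACCACCCA were each found in 0 of the 6 windows and in 0.423%, 4.72% and 0.253% of all windows. Absence says only that these letters are not in these 300 bases.

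Levels spanned from the most abundant transcripts to one barely detected. In Control, Postn had a mean level of 549 FPKM and Thbs2 of 429 FPKM, Dpt and Smoc2 followed at 72.7 and 69.1 FPKM with overlapping samples, and Sparcl1 and Tnc, which also overlapped, were at 19.7 and 16.6 FPKM. Ism1 was at 9.86 and Smoc1 at 5.28 FPKM. The order of Dpt and Smoc2 differed between groups. Dpt was above Smoc2 in Esrrb (151 against 51.6 FPKM) and below it in Hh-CM (16.0 against 105 FPKM) and in Esrrb+Hh-CM (33.1 against 49.9 FPKM), with no overlap between the 2 genes' samples in those 3 groups. Postn and Thbs2 held the first and the second place in all 4 groups.

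**Figure D1:**
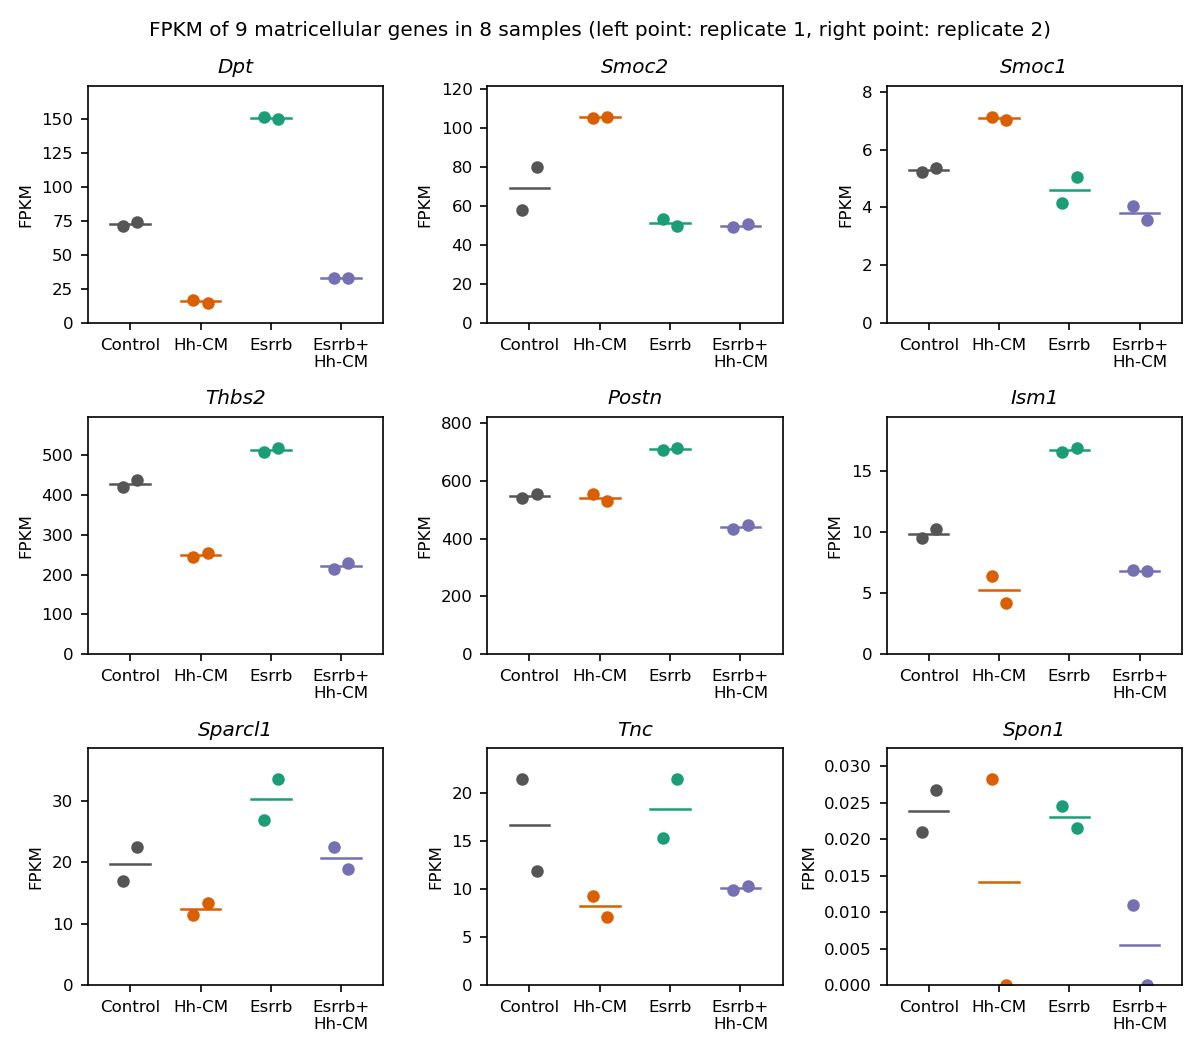
FPKM of the 9 genes in each of the 8 samples, by group, with 1 point per sample and a line at the mean of 2. The vertical axes differ between genes and start at 0. Dpt falls from 72.7 in Control to 16.0 in Hh-CM and is at 151 in Esrrb, while Smoc2 is highest in Hh-CM (105) and Postn lowest in Esrrb+Hh-CM (440 FPKM).

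Dpt (chr1:166726863-166754397, mm9, plus strand) changed most of the 9 genes. Its levels were 71.3 and 74.2 FPKM in Control, 17.1 and 14.9 in Hh-CM, 151 and 150.0 in Esrrb, and 33.3 and 33.0 in Esrrb+Hh-CM. No 2 groups overlapped, and the order was Esrrb, Control, Esrrb+Hh-CM, Hh-CM. With 2 samples a group, lack of overlap is common. It held for 61.2% to 70.0% of all genes tested, depending on the comparison, so it does not set apart this gene or those below. Group means were 72.7 ± 2.00, 16.0 ± 1.56, 151 ± 1.00 and 33.1 ± 0.220 FPKM (SD, n = 2). With Hh-CM, Dpt was at 0.219 of its Control level, and in Esrrb at 2.07 times that level. The log2 change with Hh-CM was -2.19 (SE 0.07) in empty-vector cells and -2.18 in Esrrb-labelled cells. The difference of these changes was 0.00 (SE 0.10), with a 95% interval from -0.23 to 0.24. Multiplying the single ratios gives 0.454 of Control, or 33.1 FPKM, and the measured level with both was 0.455 of Control.

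Here and below, a gene is said to rise or fall where its adjusted p was below 0.05 in the limma fit over all 10281 genes, and to pass both limits where the log2 fold change was also at least 1 in size. Among the 9 genes, Dpt alone passed both limits in all 5 comparisons, although without Hh-CM replicate 2 its change in Esrrb+Hh-CM against Hh-CM was 0.95 and below the fold limit. The summed FPKM of 4 smooth muscle markers, of which Acta2 and Tagln reached 1 FPKM, moved across the same groups, from 457 to 460 in Control to 245 to 258 in Hh-CM, 253 to 256 in Esrrb and 143 to 146 with both. Myh11, a defining marker of differentiated smooth muscle, stayed at or below 0.0344 FPKM. The part of this shift in any result on the 9 genes was not tested.

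Smoc1 and Smoc2, of the SPARC family, were highest in Hh-CM, where Dpt was lowest. Smoc2 (chr17:14416513-14541797, plus strand) was at 58.0 and 80.2 FPKM in Control, 105 and 106 in Hh-CM, 53.5 and 49.6 in Esrrb, and 49.2 and 50.7 in Esrrb+Hh-CM. Both Hh-CM samples lay above all others, and the groups labelled Esrrb and Esrrb+Hh-CM overlapped. Smoc2 rose with Hh-CM in empty-vector cells (log2 change 0.63, SE 0.14), whereas in Esrrb-labelled cells the change was -0.05. The rise did not pass the adjusted p limit in 9 of 18 alternative fits, among them those with the replicate block, with the compared groups alone and with no FPKM limit. Between the Hh-CM treated groups it was lower in Esrrb+Hh-CM by a log2 change of -1.08, past both limits.

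The Control samples of Smoc2 stand apart from each other. Replicate 2 was assembled on a locus that begins 29358 bases before the annotated start, which was so in no other sample, and the log2 gap of 0.47 between the Control samples was larger than that of 93.6% of the genes tested. The Cufflinks bounds of the Control values, 53.2 to 59.5 and 76.2 to 84.5 FPKM, did not overlap. However, 7 of the 64 values of the tested genes lay outside their own bounds, Smoc2 in Hh-CM replicate 1 among them. The others were values of Postn, Thbs2 and Dpt. Without Control replicate 1, the log2 change with Hh-CM was 0.39 and the difference of the Hh-CM changes -0.44. Without Control replicate 2, the log2 change with Hh-CM was 0.86 in place of 0.63, and the difference of the Hh-CM changes was -0.91 in place of -0.67 (SE 0.20, 95% interval -1.18 to -0.17). That difference passed the adjusted p limit only without replicate 2, among the alternatives run.

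Smoc1 (chr12:82127795-82287401, plus strand), known for antagonizing bone morphogenetic proteins, had levels of 5.21 and 5.35 FPKM in Control, 7.13 and 7.02 in Hh-CM, 4.16 and 5.07 in Esrrb, and 4.04 and 3.56 in Esrrb+Hh-CM. As for Smoc2, the Hh-CM samples were the highest of the 8. The log2 change with Hh-CM was 0.42 (SE 0.11) in empty-vector cells, which did not pass the adjusted p limit, and -0.27 in Esrrb-labelled cells. Smoc1 fell in Esrrb+Hh-CM against Hh-CM (-0.88) and against Control (-0.47), the latter not past the limit in 4 of 18 alternative fits. By the root mean square distance of its centred log2 values over the 8 samples, Smoc1 was the gene of rank 10 nearest to Smoc2 among 10280 genes, at 0.215 against a median of 0.499. Both genes were chosen with their levels known, so nothing is read from this rank. The distance also takes in the Control samples of Smoc2, which stand apart from each other.

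Sparcl1 (chr5:104508130-104543107, minus strand) was lowest in Hh-CM and highest in Esrrb, as was Dpt. It was measured at 17.0 and 22.5 FPKM in Control, 11.5 and 13.3 in Hh-CM, 26.9 and 33.6 in Esrrb, and 22.4 and 18.9 in Esrrb+Hh-CM. Control overlapped with Esrrb+Hh-CM, and no other groups overlapped. Sparcl1 was higher in Esrrb+Hh-CM than in Hh-CM by 0.73 on the log2 scale, which passed the adjusted p limit, though not in 9 of 18 alternative fits, and in the other 4 comparisons it did not pass. Its span overlaps Gm16990, a non-coding gene on the opposite strand. The libraries were made with a stranded kit, but the sources used here do not say whether strand was used in mapping and assembly, so reads of the pair may not have been separated.

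Of the genes with thrombospondin repeats, Thbs2 and Ism1 fell with Hh-CM in cells of either vector, though for Ism1 in empty-vector cells not under every alternative. Thbs2 (chr17:14802507-14831269, minus strand) was at 420 and 439 FPKM in Control, 245 and 255 in Hh-CM, 508 and 519 in Esrrb, and 215 and 230.0 in Esrrb+Hh-CM. No 2 groups overlapped. The log2 change with Hh-CM was -0.78 (SE 0.05) in empty-vector cells and -1.21 in Esrrb-labelled cells, the latter past both limits, with a difference of -0.43 (SE 0.07, 95% interval -0.59 to -0.26) that did not pass the adjusted p limit. Thbs2 rose in Esrrb against Control by 0.26 on the log2 scale, which did not pass in 5 of 18 alternative fits, and in Esrrb+Hh-CM against Control it fell (-0.95). It lies 260709 bases from Smoc2 with 0 annotated genes between them among those kept for matching, and the pair went in opposite directions with Hh-CM in empty-vector cells.

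Ism1 (chr2:139503914-139584317, plus strand), whose product has been described as an angiogenesis inhibitor, was at 9.50 and 10.2 FPKM in Control, 6.37 and 4.14 in Hh-CM, 16.5 and 16.9 in Esrrb, and 6.85 and 6.76 in Esrrb+Hh-CM. The Esrrb samples stood highest and the Hh-CM samples lowest. Its log2 change with Hh-CM was -0.93 (SE 0.19) in empty-vector cells and -1.28 in Esrrb-labelled cells, and it rose by 0.75 in Esrrb against Control. The change in empty-vector cells did not pass the adjusted p limit in 4 of 18 alternative fits (no FPKM limit, the compared groups alone, and without either Control sample), and the rise in Esrrb in 10 of 18. The Hh-CM samples differed from each other by 0.61 on the log2 scale, more than 95.6% of the genes tested. Cufflinks used 5 different loci for Ism1 across the 8 samples, with an overlap of at least 0.973 with the gene. Spon1 (chr7:120909512-121186884, plus strand), named for its part in the floor plate of the neural tube, reached at most 0.0283 FPKM and was listed at 0 in replicate 2 of Hh-CM and of Esrrb+Hh-CM.

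Postn (chr3:54165031-54194961, plus strand) was level between Control and Hh-CM and lowest with both. Its levels were 542 and 555 FPKM in Control, 554 and 530 in Hh-CM, 707 and 715 in Esrrb, and 434 and 447 in Esrrb+Hh-CM. Control and Hh-CM overlapped, while the Esrrb samples were above and the Esrrb+Hh-CM samples below all others. The values of Control replicate 1, Hh-CM replicate 1 and Esrrb replicate 2 lay outside their own Cufflinks bounds. With Hh-CM the log2 change was -0.02 (SE 0.04) in empty-vector cells and -0.69 in Esrrb-labelled cells. The difference of these changes was -0.67 (SE 0.05, 95% interval -0.80 to -0.55), and Postn was the member whose difference passed the adjusted p limit. The product of the single ratios, 1.28 of Control, corresponds to 702 FPKM, against 440 ± 9.30 FPKM measured in Esrrb+Hh-CM (SD, n = 2).

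Tnc (chr4:63620819-63681760, minus strand) varied most between the Control replicates. Its values were 21.5 and 11.8 FPKM in Control, 9.29 and 7.11 in Hh-CM, 15.3 and 21.4 in Esrrb, and 9.85 and 10.3 in Esrrb+Hh-CM. All 4 samples with Hh-CM were below all 4 without it. The log2 change with Hh-CM was -0.96 (SE 0.31) in empty-vector cells and -0.84 in Esrrb-labelled cells, and neither passed the adjusted p limit. The Control samples differed by 0.85 on the log2 scale, more than 97.3% of genes. The first of these changes was -0.54 without Control replicate 1, and without Control replicate 2 it was -1.39 and passed both limits. The locus overlaps the gene by 0.699 and also covers part of 8030451A03Rik, a non-coding gene on the opposite strand, from whose reads those of Tnc may likewise not have been separated. The locus was given to Tnc, and not to 8030451A03Rik, by a preference for protein-coding genes set after the files were seen.

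**Figure D2:**
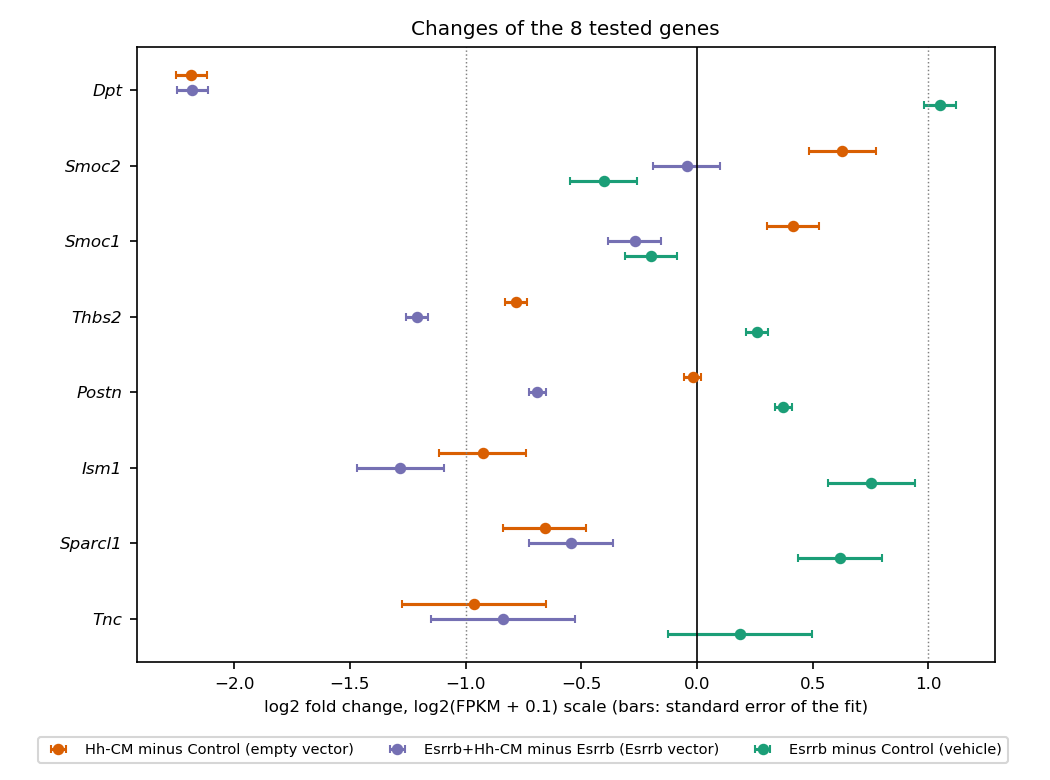
Log2 fold change (horizontal axis, log2(FPKM + 0.1) scale) of the 8 tested genes in 3 comparisons, with the standard error of the fit, and dotted lines at a log2 change of 1 in either direction. The Dpt changes with Hh-CM lie together at -2.19 and -2.18, whereas for Postn they are apart at -0.02 and -0.69 and for Smoc2 at 0.63 and -0.05.

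Counts of the tested members are set beside the share of all genes that passed the same limits. In Hh-CM against Control, 1 of 8 passed both limits (2.76% of all genes) and 4 passed the adjusted p limit (18.0% of all genes). In Esrrb against Control, 1 passed both limits (1.48%) and 4 the adjusted p limit (16.4%), all 4 upward. In Esrrb+Hh-CM against Control these were 1 (6.22%) and 4 (35.0%), all 4 downward. In Esrrb+Hh-CM against Hh-CM, 2 genes, Dpt upward and Smoc2 downward, passed both limits (1.97%), and 5 passed the adjusted p limit (19.0%). In Esrrb+Hh-CM against Esrrb, 3 genes, Dpt, Ism1 and Thbs2, passed both limits downward (4.82%), and 4 passed the adjusted p limit (23.4%). The difference of the Hh-CM changes passed for 1 gene, Postn (1.35%). Because the members were chosen with these contrasts known, nothing is read from the shares. The comparisons share the Control samples or other groups and are not independent of each other.

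The median log2 change of the 8 genes was -0.72 in Hh-CM against Control, beside 0.04 for all genes tested. In Esrrb against Control it was 0.32 beside 0.05, and in Esrrb+Hh-CM against Esrrb -0.76 beside 0.04. All 8 values of the last comparison were below 0, from -0.05 for Smoc2 to -2.18 for Dpt. Against Control, Esrrb+Hh-CM had a median of -0.50 beside 0.08 and, against Hh-CM, of 0.07 beside 0.05. The genes were chosen with their levels known, so nothing is read from these medians or from the 8 values below 0.

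**Figure D3:**
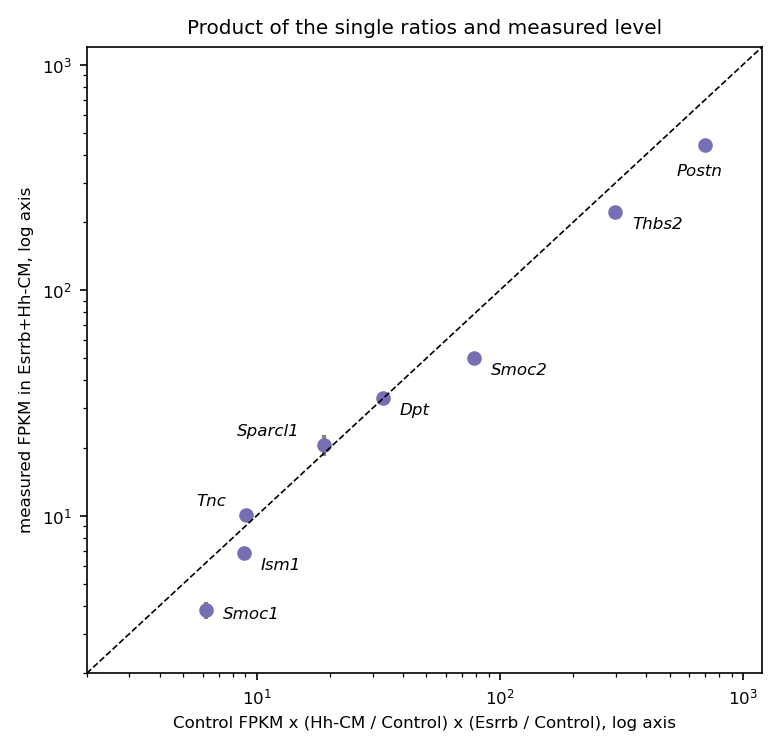
Mean FPKM measured in Esrrb+Hh-CM (vertical log axis, grey bar from the lower to the higher of 2 samples) against the FPKM given by multiplying the Control level with the Hh-CM and Esrrb ratios (horizontal log axis), for the 8 tested genes. The dashed line marks equal values. Dpt lies on it (33.1 by product and 33.1 measured), Tnc and Sparcl1 slightly above, and Smoc1, Smoc2, Postn, Thbs2 and Ism1 below it.

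For Smoc2 the product of the single ratios was 1.14 of Control and the measured ratio 0.723, and for Smoc1 the same quantities were 1.17 and 0.720. Thbs2 had a product of 0.696 and a measured ratio of 0.518, and Ism1 of 0.902 and 0.690. Sparcl1 (0.962 and 1.05) and Tnc (0.544 and 0.607) were measured a little above their products. The 95% interval of the difference between the Hh-CM changes lay below 0 for Smoc1 (-1.08 to -0.29), as for Smoc2, Thbs2 and Postn. It included 0 for Ism1 (-1.01 to 0.30), Sparcl1 (-0.51 to 0.74) and Tnc (-0.96 to 1.21). An interval without 0 equals an unadjusted p below 0.05 in the limma fit, which 18.0% of all genes had for this difference. Of the members with such an interval, Postn alone passed the adjusted p limit, and nothing is read from the intervals of the others.

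The genes most like Dpt and Smoc2 in their pattern were looked up by the same distance over 8 samples among 10280 genes. Nearest to Dpt were Slc36a2 (distance 0.219), Cacna1g (0.240) and Saa3 (0.251). Saa3, an acute phase apolipoprotein gene, had mean levels of 1308 FPKM in Control, 342 in Hh-CM, 2484 in Esrrb, then 847 FPKM with both, so that its order over the groups was that of Dpt at a far higher level. Nearest to Smoc2 were C430049B03Rik (0.163), Plekhg5 (0.167) and Smarca1 (0.173), the last encoding a chromatin remodeling ATPase, at 11.2, 17.0, 8.09 and 8.84 FPKM in the same order of groups.

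Other matricellular genes were followed through a list of 30, of which 28 had a value and 20 were tested. This list and those of receptors and matrix partners below were chosen with earlier results of these data known. Genes were named from those past the limits, by size of change, so their p-values describe them and are not independent tests. With Hh-CM in empty-vector cells 7 rose and 6 fell (18.0% of all genes passed the adjusted p limit), and 1 rose and 3 fell past both limits (2.76% of all genes). Thbs1, which like Thbs2 restrains vessel growth and also activates latent TGF-β, fell from 118 ± 3.46 to 35.4 ± 0.276 FPKM (SD, n = 2; log2 change -1.73, SE 0.06; adjusted p = 5.43e-05, limma with Benjamini-Hochberg adjustment). Its change in Esrrb-labelled cells was -1.78 and the difference between the changes -0.05 (adjusted p = 0.79, limma). Cyr61, an integrin ligand of the CCN family, fell from 21.9 to 10.7 FPKM (adjusted p = 0.000253, limma), and Spp1 (osteopontin) with a log2 change of -1.03. Thbs3 moved against Thbs1 and Thbs2, rising from 9.48 ± 1.26 to 20.4 ± 3.18 FPKM (adjusted p = 0.00757, limma). The calls of Cyr61 and Thbs3 past both limits were each lost in 2 of 18 alternative fits.

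In Esrrb against Control 3 of the 20 rose and 8 fell, beside 16.4% of all genes that passed. The gene past both limits (1.48% of all genes) was Nov, another CCN gene, at 2.04 ± 0.108 FPKM in Control and 0.670 ± 0.108 in Esrrb (log2 change -1.48, SE 0.17; adjusted p = 0.00460, limma). This call was lost in 1 of 17 alternative fits, that with a pseudocount of 1 (log2 change -0.87). With Hh-CM in empty-vector cells the log2 change of Nov was 0.01 (adjusted p = 0.979, limma). Wisp2, the CCN gene that lacks the carboxy-terminal domain, was at 81.6, 45.1, 60.4 and 24.4 FPKM in Control, in Hh-CM, in Esrrb-labelled cells and with both. In Esrrb+Hh-CM against Control it fell, with a log2 change of -1.74 (adjusted p = 9.64e-06, limma), and its changes with Hh-CM differed by -0.45 between vectors (adjusted p = 0.0281, limma), a call lost in 8 of 17 alternative fits. Tgfbi, which like periostin carries fasciclin domains, fell in Esrrb+Hh-CM against Control from 12.6 to 4.71 FPKM (log2 change -1.40, adjusted p = 0.00012, limma).

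Receptors of these proteins were followed as a list of 31, of which 22 were tested. In Hh-CM against Control 4 rose and 6 fell in the limma fit, beside 18.0% of all genes. An unadjusted p below 0.05 was found for 12 receptors, beside 32.1% of all genes, and 0 receptors passed both limits, beside 2.76%. Cd44, a receptor of hyaluronan and osteopontin, was at 19.7 FPKM in Control, 39.1 in Hh-CM, 16.7 in Esrrb, then 40.1 FPKM with both, and rose by 1.26 on the log2 scale in Esrrb+Hh-CM against Esrrb (SE 0.07; adjusted p = 0.000119, limma). Itga11, which with Itgb1 forms a collagen receptor of fibroblasts, fell in that comparison from 11.5 to 4.88 FPKM (adjusted p = 0.000112, limma). The integrin subunits Itgb3 and Itgb8 were lower in Esrrb than in Control, at 1.22 against 2.89 FPKM (adjusted p = 0.00586, limma) and 0.515 against 1.27 FPKM (adjusted p = 0.00894, limma). Their calls past both limits were lost in 1 of 18 alternative fits for Itgb3 and in 2 of 17 for Itgb8.

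Matrix partners, collagen-binding and elastic fiber genes and TGF-β related genes, made a list of 25 names with 23 that had a value and 17 that were tested. In empty-vector cells given Hh-CM 4 rose and 5 fell, beside 18.0% of all genes, and the pair past both limits, beside 2.76%, were Mfap4 and Fbn1. Mfap4, a microfibril-associated glycoprotein, showed the order of levels seen for Smoc2, at 28.5 ± 0.771 FPKM in Control, 59.9 ± 0.778 in Hh-CM, 10.9 ± 0.262 in Esrrb, then 13.3 ± 0.141 with both (SD, n = 2), except that Esrrb+Hh-CM was above Esrrb. It was lower in Esrrb+Hh-CM than in Hh-CM by a log2 change of -2.17 (adjusted p = 6.91e-06, limma), and its Hh-CM changes differed by -0.79 between vectors (adjusted p = 0.00654, limma).

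Fbn1, encoding fibrillin 1, rose from 5.23 ± 0.290 to 14.8 ± 3.46 FPKM with Hh-CM (log2 change 1.46, SE 0.25; adjusted p = 0.0129, limma) and was at 21.8 ± 3.53 FPKM in Esrrb+Hh-CM. Its call in Hh-CM against Control was lost in 4 of 18 alternative fits. The proteoglycan gene Vcan rose in every comparison of the 5, from 49.2 FPKM in Control to 113 in Esrrb+Hh-CM (log2 change 1.19, adjusted p = 0.0002, limma). Tgfb3, a growth factor gene, fell in Esrrb+Hh-CM against Control from 33.9 to 14.5 FPKM (adjusted p = 0.000897, limma). Ltbp1, which encodes a latent TGF-β binding protein, fell in the same comparison from 12.0 to 5.47 FPKM (adjusted p = 0.000388, limma). Mfap5 was at 111 FPKM in Control, 83.8 with Hh-CM alone, 118 in Esrrb and 117 with both, and its changes with Hh-CM differed by 0.38 between vectors (adjusted p = 0.0402, limma), opposite in sign to Mfap4, a call lost in 11 of 17 alternative fits.

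**Figure D4:**
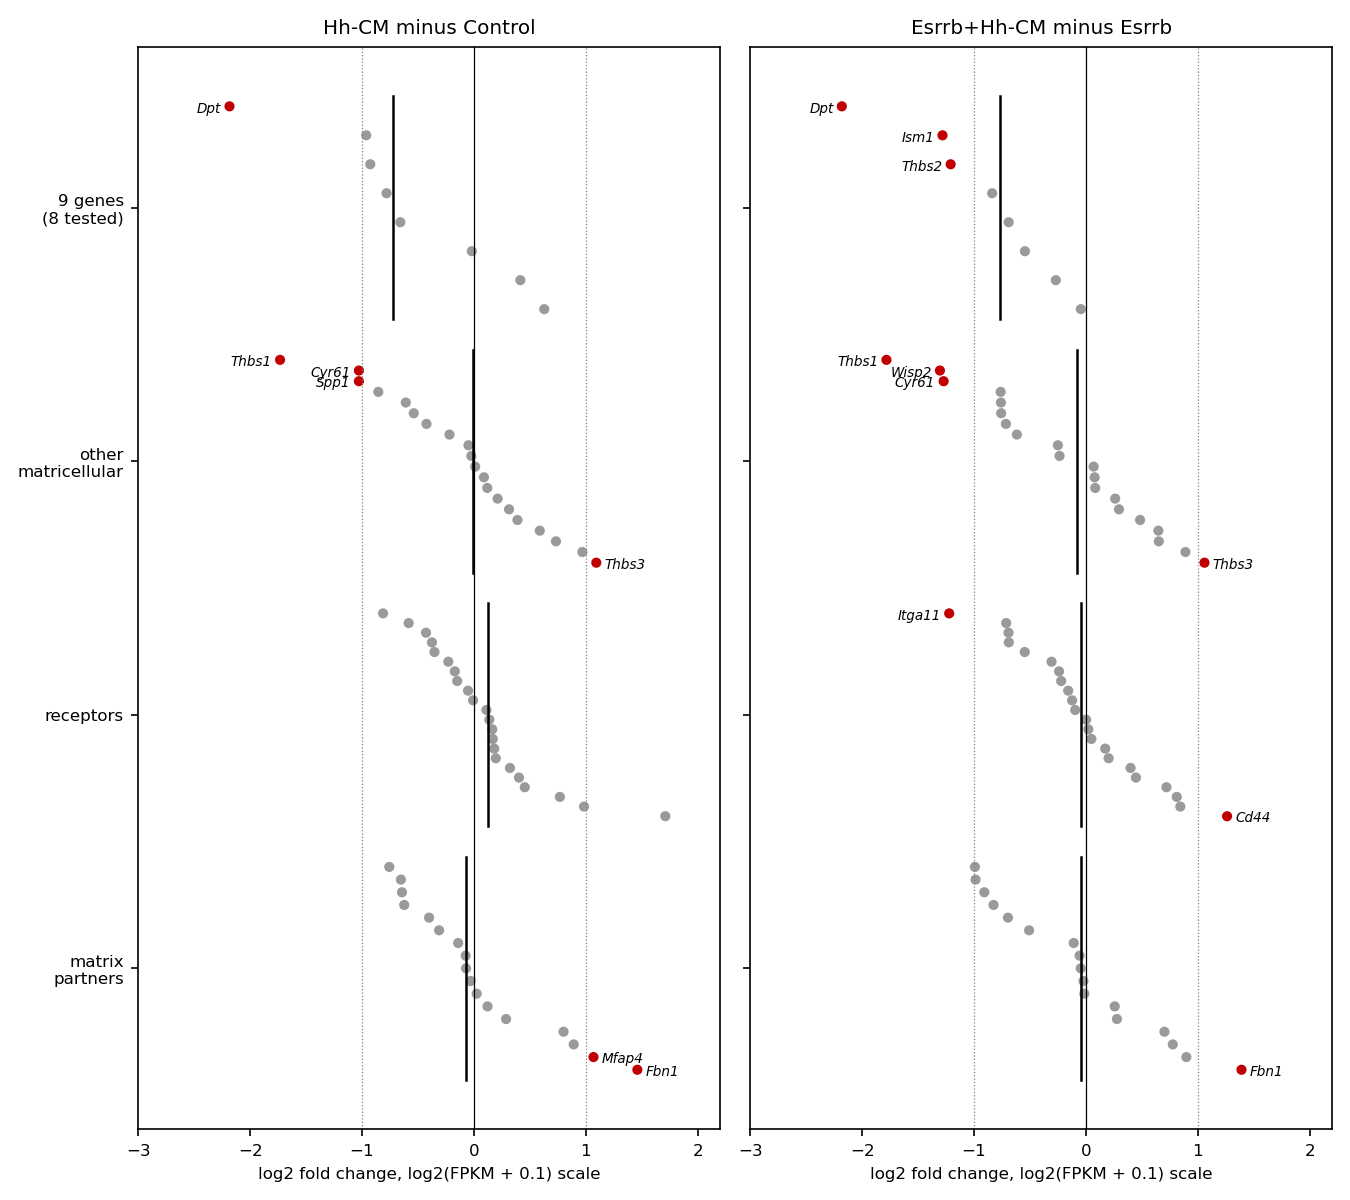
Log2 fold change (horizontal axis) of each tested gene among the 9 genes and in the 3 lists, for Hh-CM against Control and Esrrb+Hh-CM against Esrrb, 1 point per gene and a black bar at the list median. Points past both limits are red and named. The median of the 9 genes' tested members is -0.72 and -0.76, and the medians of the lists lie between -0.08 and 0.12. The 9 genes and the lists were chosen with results of these data known, so nothing is read from this gap.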

How the data were processed

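RNA-Seq values of 8 samples, 2 per group, were used with groups and replicate numbers from the sample labels. The values deposited for each sample are FPKM. To make them, the authors ran separately for each sample a pipeline of trimming reads with FASTX-Toolkit, mapping to mm9 (Bowtie2, TopHat2) and assembly with Cufflinks. Versions are not given in the sources used here, and no read counts are used. Cufflinks numbers its loci anew in each sample, which the planned join could not use. Each gene therefore took the locus with the best overlap (at least 0.5) with its mm9 annotation (GENCODE M1). Protein-coding genes were preferred over overlapping non-coding ones. This preference was set after the files were seen, since the Tnc locus otherwise went to 8030451A03Rik.

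The model was limma (version 3.58.1, R 4.3.3) with a mean for each group and a variance trend. It used log2(FPKM + 0.1) of the 10281 genes that reached an FPKM of 1 in 2 or more samples. Adjustment was by Benjamini-Hochberg over all of them. Fold changes on this scale understate those of low genes. On simulated data the fit recovered 171 of 200 changed genes with the right sign in Hh-CM against Control, and called 2 unchanged genes. This share holds for the changes that were simulated. It does not give the chance of finding changes of other sizes, such as the smaller ones among the genes described here. Figures and tables used Python 3.11.15.

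The 9 genes and the lists were chosen with earlier results of these data known. Named are the 9 genes, up to 6 genes per list past the limits in any comparison by size of change, the 3 genes nearest to Dpt and to Smoc2, and Gli1, Ptch1, Hhip and Esrrb as checks of the labels. Hhip, a Hh target, was listed at 0 in all 8 samples. Spp1 was named after its values were seen. Among markers of other cells, Tek reached 1.51 FPKM and Cd68 2.45 FPKM. The endothelial sum was 0.0811 to 0.143 FPKM without and 1.19 to 1.67 FPKM with Hh-CM, and the leukocyte sum 0.958 to 2.70 FPKM. The alternatives were other pseudocounts, FPKM limits, scaling, overlap and variance models, the replicate block, and each sample left out in turn.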

Additional observations from a re-analysis of the deposited data

Results flagged for a closer look

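The response of Postn to Hh-CM differed between cells with the empty vector and Esrrb-labelled cells. The difference of the log2 changes was -0.67 (SE 0.05), with a log2 change of -0.02 in empty-vector cells and -0.69 in Esrrb-labelled cells, and it passed the adjusted p limit in the limma fit over all genes. Both Esrrb+Hh-CM samples (434 and 447 FPKM) lay below both Esrrb samples (707 and 715 FPKM), while the Control and Hh-CM samples overlapped. Of these values, those of Control replicate 1, Hh-CM replicate 1 and Esrrb replicate 2 lay outside their own Cufflinks bounds. Postn was among the genes chosen with this contrast known, so the value is a description. Groups of 2 samples were too small for a test of single outlying samples.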

How the results depend on the processing

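Of 850 values of the 8 tested genes under alternatives, 819 kept their direction and met or missed their limits as before. These limits were the pair or, for the difference of the Hh-CM changes, the adjusted p limit alone. Of the remaining values, 1 became weaker, 11 stronger and 19 turned direction. The adjusted p limit alone was lost by 41 of the values and gained by 26. Among 32 calls of named list genes, 13 were lost in at least 1 alternative, and 0 turned direction. The number of genes past both limits in Esrrb+Hh-CM against Control was 2 with FPKM rescaled to the same upper quartile, Thbs2 joining Dpt at -1.03. For the difference of the Hh-CM changes, here and with samples left out, the number was counted by the adjusted p limit alone. It was 2, Postn and Thbs2, with a pseudocount of 1 and with a limit of FPKM 1 that every sample must reach. The same 2 genes passed with an overlap of at least 0.8, at which Tnc was lost and 7 genes were tested. With single samples left out, this count ranged from 1 to 2 in Hh-CM against Control (Tnc without Control replicate 2, Ism1 without Hh-CM replicate 1), from 1 to 2 in Esrrb+Hh-CM against Control (Tnc without Control replicate 2, Thbs2 without Esrrb+Hh-CM replicate 2), from 1 to 2 in Esrrb+Hh-CM against Hh-CM (Dpt at 0.95 without Hh-CM replicate 2) and from 1 to 2 for the difference (Smoc2 without Control replicate 2, Thbs2 without Esrrb+Hh-CM replicate 2). The sample left alone in a group was assumed to vary like the others. The change of Sparcl1 in Esrrb+Hh-CM against Control was -0.0083 when rescaled and -0.13 to 0.27 with samples left out. The difference for Dpt was -0.029 with a pseudocount of 1, -0.0047 when rescaled and -0.10 to 0.10 with samples left out. With samples left out, the difference ranged from -0.087 to 0.31 for Sparcl1 and from -0.30 to 0.55 for Tnc, and the changes from -0.051 to 0.014 for Postn in Hh-CM against Control, from -0.24 to 0.61 for Tnc in Esrrb against Control and from -0.10 to 0.0097 for Smoc2 in Esrrb+Hh-CM against Esrrb. The cause was not tested.

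Deviations of same-numbered samples correlated between -0.043 and 0.067, so no large deviation shared by replicate number was seen. Whether the samples were paired cannot be decided from this, since a pairing with a small effect would look the same. With the replicate block, 2 of the 8 genes, Postn and Thbs2, passed the limit for the difference, and 54 of all genes in place of 139. Over all genes that count was 84 with no variance trend and as low as 61 without Esrrb replicate 2. Counts past both limits were 179 with a pseudocount of 1 and 185 with the limit in every sample, in place of 284, in Hh-CM against Control. They were 88 and 70 in place of 152 in Esrrb against Control, and 125 and 109 in place of 203 in Esrrb+Hh-CM against Hh-CM. With 2 samples a group, an exact permutation test of a single gene cannot go below 0.333, and relative depth from 0.743 to 1.54 limits values such as those of Spon1.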
